A study of Mus musculus with 32 samples.

Results

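The SLAM family is a group of immunoglobulin-like receptors of leukocytes, described here in lupus mouse kidneys through 10 genes, namely Slamf1, Cd244 (listed by the array annotation as Cd244a), Cd48, Ly9, Cd84, Slamf6, Slamf7, Slamf8 and Slamf9 and the adaptor gene Sh2d1a. The genes were chosen by symbol, without use of their values, and all 10 were among the 15780 named genes tested. Expression was measured on Affymetrix arrays in 32 whole kidneys. From NZB/W mice there were 7 kidneys without proteinuria, from untreated mice 30 weeks old. Another 8 were in early remission after triple therapy with CTX (cyclophosphamide), CTLA4Ig and anti-CD154. Of these agents, CTLA4Ig and anti-CD154 block T cell costimulation. There were also 6 NZB/W kidneys in late remission after the same triple therapy and 5 in late remission after Ad-TACI-Ig, an adenovirus encoding a decoy receptor for BAFF and APRIL, given with CTLA4Ig. The remaining 6 kidneys were from NZM2410 mice in remission after Ad-BAFF-R-Ig, an adenovirus encoding a decoy receptor for BAFF. Ages are given by the labels for the 30-week group alone, and kidneys with nephritis or from young mice were not analysed here. The kidney markers were present, with group means from 6.97 (Nphs1) to 13.99 (Umod) for 11 measured genes. NZM2410 was sampled with 1 agent that no NZB/W group received, and the batches that the authors corrected for are not named, so that strain, agent and any remaining batch cannot be told apart. In whole kidney, fewer cells of a type and less RNA per cell cannot be told apart either.

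Most SLAM receptors bind themselves on the neighbouring cell, while Cd244 binds Cd48. Their cytoplasmic tails carry tyrosine motifs that recruit the adaptor SAP, encoded by Sh2d1a, which brings in the kinase Fyn. Without SAP the same motifs recruit phosphatases. The receptors tune the contacts of T cells with B cells, the help given in germinal centres and the killing by NK cells, and the chromosome 1 cluster that encodes them has long been studied in lupus-prone mice. By RefSeq, 7 members (Cd244a, Ly9, Slamf7, Cd48, Slamf1, Cd84 and Slamf6, in that order) lie next to each other on mouse chromosome 1, Slamf9 and Slamf8 lie further along it, and Sh2d1a is on chromosome X. Values are RMA log2 intensities with 1 probe set per gene. Tests are limma's, adjusted by Benjamini-Hochberg over all 15780 genes, with a threshold of 0.05.

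In NZM2410 kidneys, 7 of 10 members were lower than in NZB/W kidneys (the mean of the 4 NZB/W group means), none was higher, and Cd48, Cd84 and Slamf9 did not pass the test. Of all genes 34.4% were called lower and 69.2% were called in either direction, so that the strains differed at most genes. The median difference of the 10 members was -0.53 on the log2 scale, against 0.015 over all genes. The probe sets of the members had low signal, however, and at low signal most genes were lower in NZM2410. With genes ordered by mean signal, the lowest decile had a median difference of -0.44, the next -0.25 and the next -0.076, while deciles 4 to 10 ranged from 0.041 to 0.17. Cd244a and Sh2d1a were in the lowest decile, Slamf1, Cd84, Slamf7 and Slamf8 in the next, Ly9 in decile 3, Cd48 and Slamf6 in decile 4 and Slamf9 in decile 6. When the arrays were quantile-normalized again, which gives all arrays the same distribution of values, the lower members were Slamf1, Slamf6 and Slamf7, and Cd84 was higher. That is 3 of 10 lower where 28.3% of all genes were, a share near the background, and 1 of 10 higher where 31% were (59.3% either way). Differences of the members in this comparison are therefore given on both scales.

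**Figure D1:**
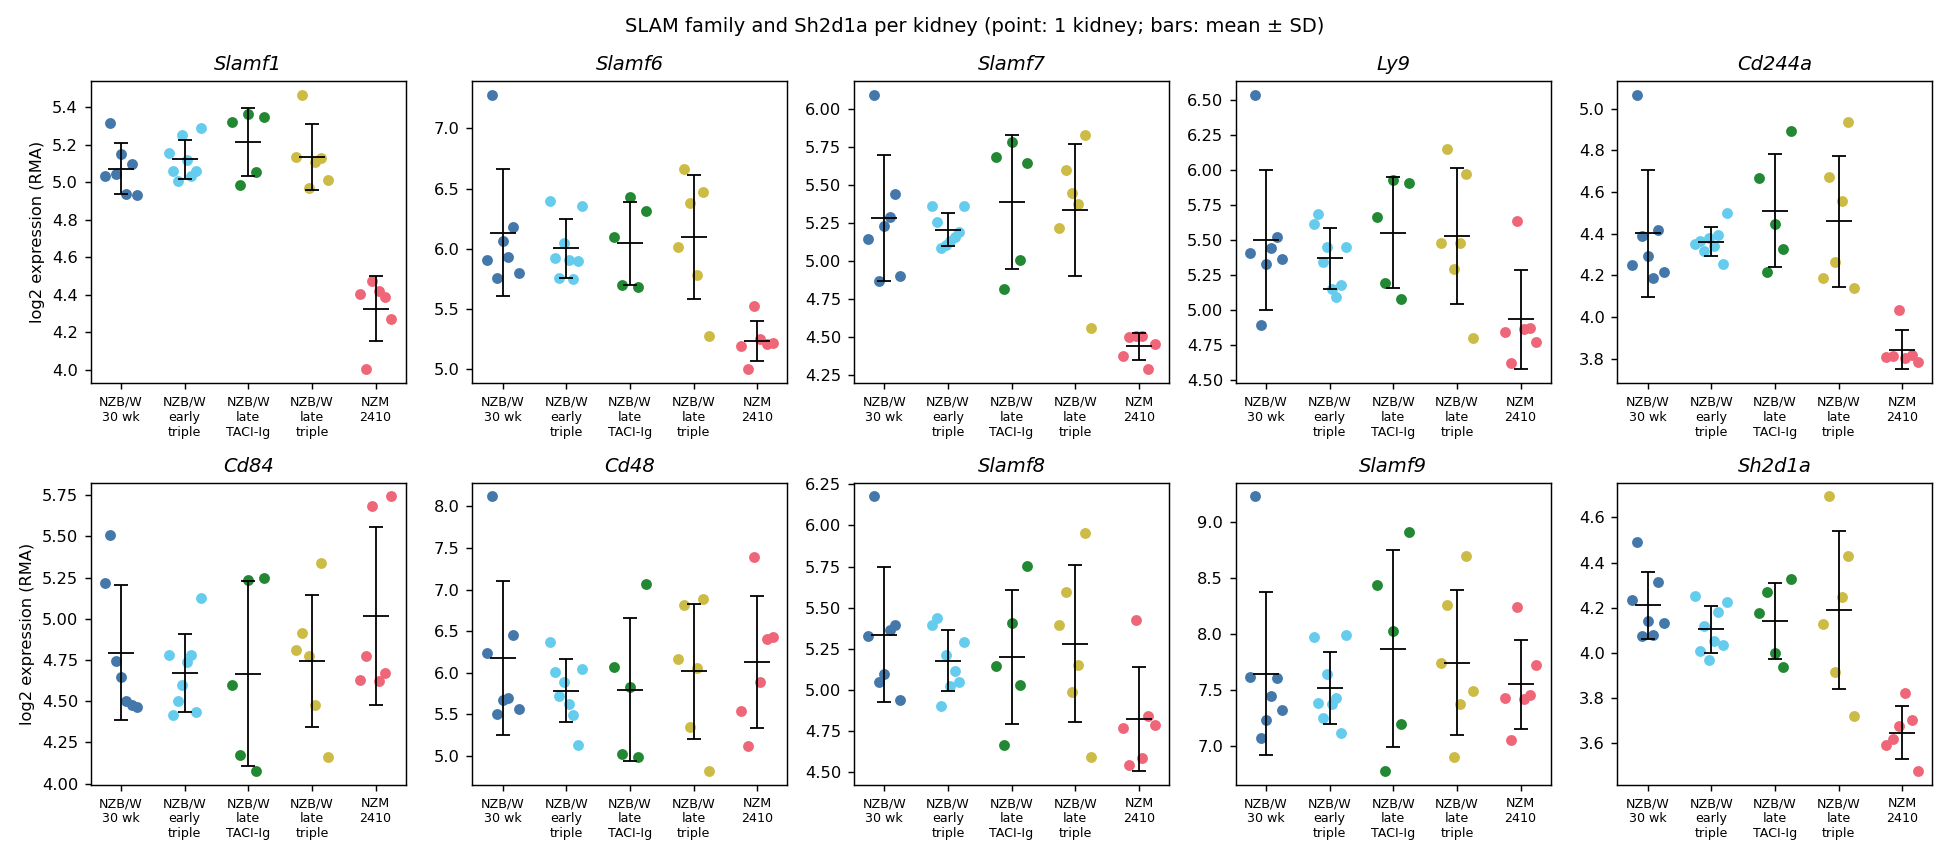
Deposited log2 expression of the 10 members (vertical axes, a separate scale per gene) in each of 32 kidneys by group (horizontal axes), with the group mean and SD as bars. The 6 NZM2410 kidneys lie below all 26 NZB/W kidneys for Slamf1, Cd244a and Slamf7, while for Cd48 and Slamf9 the groups overlap.

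**Figure D2:**
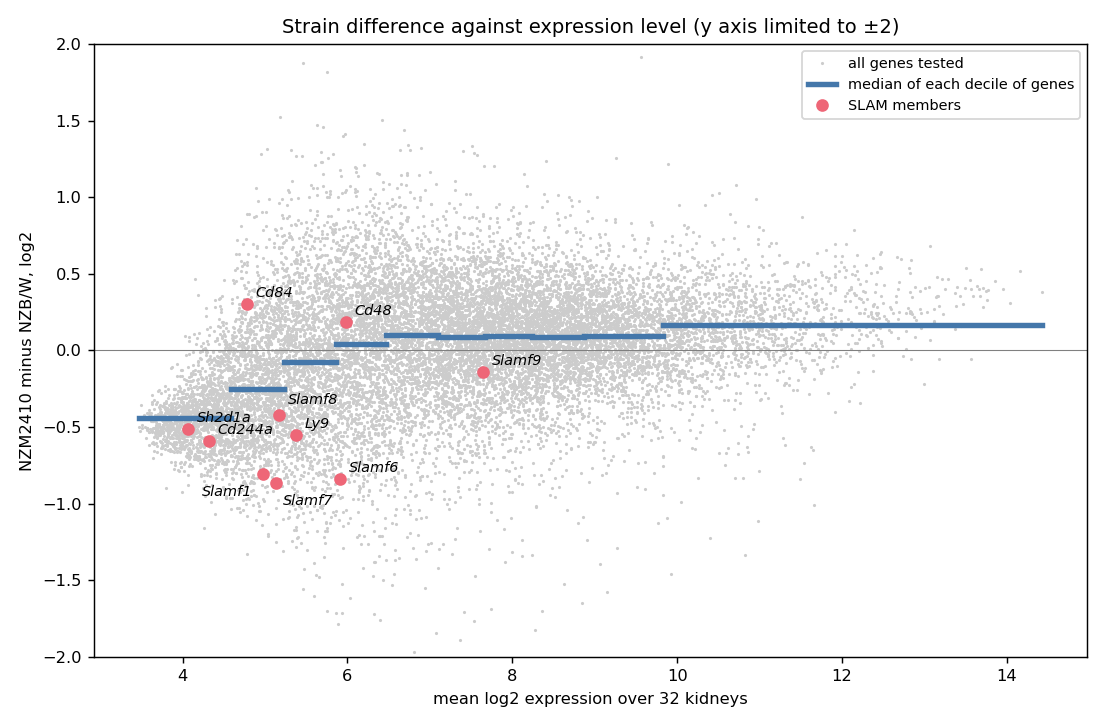
Difference between NZM2410 and NZB/W (vertical axis, log2) against mean log2 expression over the 32 kidneys (horizontal axis) for all genes tested (grey points), with the median of each decile (blue lines, -0.44 at the left and 0.17 at the right) and the 10 members (red points). Cd84 and Cd48 lie above the median of their decile, and the other 8 members below it.

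Slamf1 encodes the founding receptor of the family (CD150), which binds itself and is carried by T cells, B cells and antigen-presenting cells. Its log2 values in the 6 NZM2410 kidneys were 4.40, 4.003, 4.47, 4.42, 4.39 and 4.27. The 5 TACI-Ig kidneys had 5.32, 4.98, 5.36, 5.06 and 5.35. Values ran from 4.93 to 5.32 with a median of 5.04 at 30 weeks, from 5.01 to 5.29 (median 5.09) in early remission and from 4.97 to 5.47 (median 5.12) in late remission after triple therapy. The highest NZM2410 kidney was thus below the lowest NZB/W kidney. The difference was -0.81 (SE 0.0675, limma adjusted p = 6.04e-12), a 1.75-fold lower signal. It was -0.48 (SE 0.0579, adjusted p = 2.57e-08) on quantile-normalized values, where the 6 NZM2410 kidneys, at most 4.70, were still below the 26 NZB/W kidneys, at least 4.93. Slamf1 was the only member with such a separation on that scale, and 8.37% of all genes had it.

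Slamf6 encodes Ly108, a self-binding receptor of T and B cells. NZM2410 kidneys had 5.19, 4.999, 5.52, 5.25, 5.21 and 5.22, and TACI-Ig kidneys 6.10, 5.70, 6.43, 5.69 and 6.31. The 30-week kidneys ran from 5.76 to 7.28 (median 5.93), the early-remission kidneys from 5.75 to 6.39 (median 5.92) and the late-remission kidneys after triple therapy from 5.28 to 6.66 (median 6.19). Of the NZM2410 kidneys, 5 of 6 were below all NZB/W kidneys, and replicate 3 lay above one kidney alone, late remission after triple therapy replicate 11. The difference was -0.84 (SE 0.165, limma adjusted p = 4.45e-05), and -0.72 (SE 0.161, adjusted p = 0.000307) on quantile-normalized values.

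Slamf7 encodes CRACC, a self-binding receptor of NK cells, B cells and plasma cells. Its values of 4.37, 4.50, 4.50, 4.51, 4.29 and 4.45 in NZM2410 kidneys had an SD of 0.0894, against 0.441 among the TACI-Ig kidneys at 5.69, 4.82, 5.78, 5.01 and 5.64. At 30 weeks the range was 4.87 to 6.10 (median 5.23), in early remission 5.09 to 5.36 (median 5.18) and in late remission after triple therapy 4.56 to 5.83 (median 5.41). As deposited, all NZM2410 kidneys were below all NZB/W kidneys, with the lowest of these at 4.56. On quantile-normalized values they overlapped, with NZM2410 kidneys at 4.58 to 4.79 and NZB/W kidneys at 4.46 to 6.06. The difference was -0.87 (SE 0.14, limma adjusted p = 2.44e-06) as deposited and -0.56 (SE 0.138, adjusted p = 0.000873) after quantile normalization.

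The 250 bases before the start sites of Slamf1, Slamf6 and Slamf7 are shown because these are the members that were lower in NZM2410 under each scaling. They are RefSeq's for the C57BL/6J reference (GRCm38.p6), not for the strains studied here, and are written 5′ to 3′ on the strand of the gene, at chr1:171766882-171767131 (plus strand), chr1:171917212-171917461 (plus) and chr1:171649000-171649249 (minus) in that order. Capitals mark matches, on either strand, to a core of ETS factors (AGGAAG), RUNX factors (TGTGGT), E-box proteins (CAGCTG) or interferon regulatory factors (GAAA, any 2 bases and GAAA), all of them transcription factor families of leukocytes.
Slamf1: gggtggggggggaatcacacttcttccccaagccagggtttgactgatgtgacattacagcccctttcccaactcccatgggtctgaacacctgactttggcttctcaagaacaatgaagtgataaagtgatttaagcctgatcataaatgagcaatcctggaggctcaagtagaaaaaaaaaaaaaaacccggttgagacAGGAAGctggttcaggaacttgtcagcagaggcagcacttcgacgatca
Slamf6: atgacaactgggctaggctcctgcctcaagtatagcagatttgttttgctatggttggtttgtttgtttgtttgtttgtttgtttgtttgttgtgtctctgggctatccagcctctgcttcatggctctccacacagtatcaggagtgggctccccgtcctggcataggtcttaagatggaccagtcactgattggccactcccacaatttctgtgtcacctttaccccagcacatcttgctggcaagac
Slamf7: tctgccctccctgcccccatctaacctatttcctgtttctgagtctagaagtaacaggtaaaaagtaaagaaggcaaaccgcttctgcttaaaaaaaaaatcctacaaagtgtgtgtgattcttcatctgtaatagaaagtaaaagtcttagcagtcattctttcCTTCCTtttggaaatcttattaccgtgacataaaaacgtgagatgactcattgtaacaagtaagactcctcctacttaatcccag
The Slamf1 window held 1 ETS match, that of Slamf7 held 1 on the opposite strand (CTTCCT), and that of Slamf6 held none of the 4 motifs. Of the 8 members with a promoter in the RefSeq table used (all but Ly9 and Sh2d1a), 3 held the ETS letters, 2 the RUNX letters, 2 the E-box letters and 1 the interferon regulatory factor letters, and no matches overlapped. Among all 32851 promoters listed there, 29.5% held the ETS letters, 14% the RUNX letters, 13.0% the E-box letters and 2.98% those of interferon regulatory factors. Members that were lower and members that were not did not separate by ETS matches, since Slamf9 held 2 and Slamf6 none. The RUNX matches were in Cd48 and Cd84, neither of them called lower. E-box matches were in Slamf8 and Slamf9, and the interferon regulatory factor match was in Slamf8. A relation of the matches to the differences was not tested.

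Cd244a, Sh2d1a, Ly9 and Slamf8 were lower in NZM2410 as deposited, and none of them passed the test after quantile normalization. Cd244a encodes 2B4, the receptor of Cd48 on NK cells. NZM2410 kidneys had 3.81, 3.81, 4.04, 3.80, 3.82 and 3.78, below all NZB/W kidneys (4.14 to 5.07, median 4.36). Its difference was -0.59 (SE 0.1, limma adjusted p = 5.23e-06), and -0.15 (adjusted p = 0.203) after quantile normalization, where the strains overlapped. With Slamf1 and Slamf7 it made up the 3 of 10 members whose NZM2410 values were all below NZB/W as deposited, and 16% of all genes were separated in this way. Sh2d1a had 3.59, 3.61, 3.67, 3.82, 3.70 and 3.47 in NZM2410 and 3.72 to 4.69 (median 4.14) in NZB/W, and 5 of 6 NZM2410 kidneys were below all others. The difference of -0.52 (SE 0.0849, limma adjusted p = 3.27e-06) was -0.045 (adjusted p = 0.66) after quantile normalization. The signal of Sh2d1a was among the lowest 3.31% of genes, and the deposited difference was close to the median of its decile, -0.44.

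Ly9 encodes CD229, a self-binding receptor of T and B cells. Its values in NZM2410 were 4.84, 4.62, 5.63, 4.86, 4.87 and 4.77, of which replicate 3 was the only one above the NZB/W median of 5.44 (range 4.80 to 6.53). The difference was -0.55 (SE 0.17, limma adjusted p = 0.00478) as deposited, -0.36 (adjusted p = 0.0603) after quantile normalization and -0.41 (adjusted p = 0.0314) after cyclic loess, which fits and removes differences between arrays along the signal scale. Slamf8, a macrophage receptor with a short tail that lacks the SAP motif, had 4.77, 4.54, 5.43, 4.59, 4.84 and 4.79 in NZM2410 and 4.60 to 6.18 (median 5.18) in NZB/W. Again replicate 3 alone lay above the NZB/W median. Its difference of -0.42 (SE 0.155, limma adjusted p = 0.0167) was lost without NZM2410 replicate 2 (-0.37, adjusted p = 0.0555) or replicate 4 (-0.38, adjusted p = 0.0503), and was -0.19 (adjusted p = 0.283) after quantile normalization.

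Cd84, Cd48 and Slamf9 did not pass the test as deposited. Cd84 encodes a self-binding receptor of B cells, T cells, platelets and macrophages. Its NZM2410 kidneys formed a lower set of 4.63, 4.77, 4.62 and 4.67 and a pair at 5.68 (replicate 3) and 5.74 (replicate 6), and the pair was above all NZB/W kidneys (4.08 to 5.51, median 4.69). The difference was 0.30 (95% interval -0.072 to 0.67, limma adjusted p = 0.144) as deposited. It was called higher, at 0.53 (SE 0.177, adjusted p = 0.0111) after quantile normalization and at 0.57 (SE 0.182, adjusted p = 0.00756) after cyclic loess. Cd48, the membrane-anchored ligand of Cd244, is found on most leukocytes. NZM2410 kidneys had 5.54, 5.12, 7.39, 5.89, 6.40 and 6.43, inside the NZB/W range of 4.82 to 8.12 (median 5.86). The difference was 0.18 with a 95% interval from -0.47 to 0.84 (adjusted p = 0.624), without NZM2410 replicate 3 it was -0.067, and after quantile normalization it was 0.21 (adjusted p = 0.587). Slamf9, a short-tailed receptor of macrophages and dendritic cells, had 7.42, 7.05, 8.24, 7.41, 7.45 and 7.72 in NZM2410, inside the NZB/W range of 6.78 to 9.23 (median 7.47). The difference was -0.14 (95% interval -0.67 to 0.38, adjusted p = 0.631), and -0.22 (adjusted p = 0.473) after quantile normalization.

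**Figure D3:**
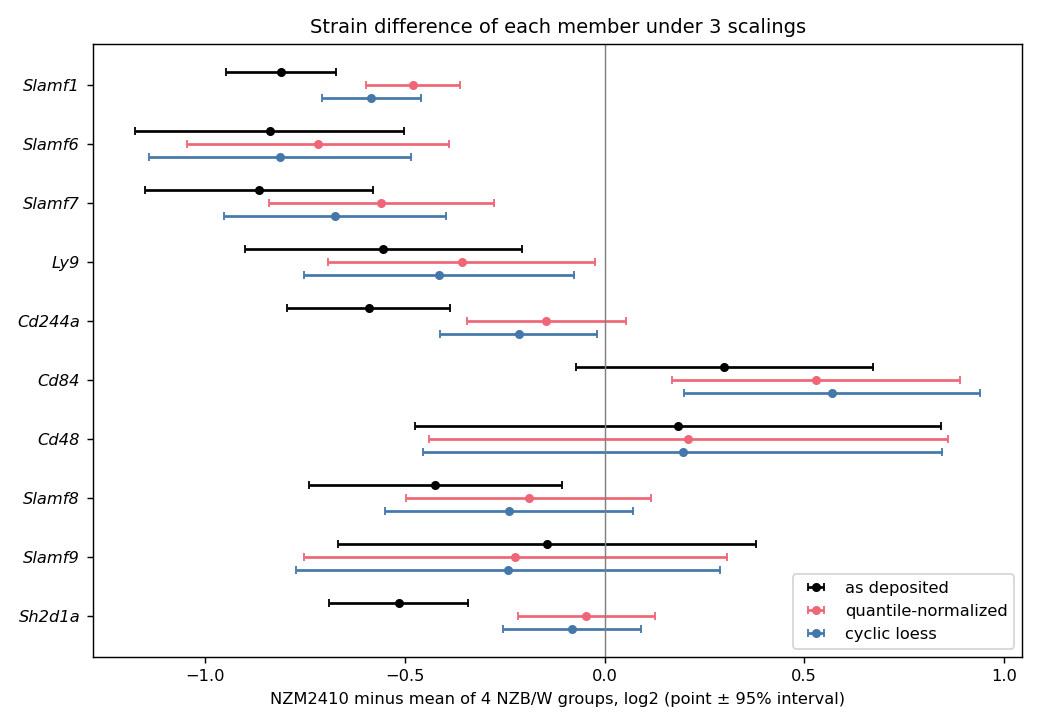
Difference between NZM2410 and the mean of the 4 NZB/W groups for each member (horizontal axis, log2, with 95% intervals) on deposited, quantile-normalized and cyclic loess values. Intervals of Slamf1, Slamf6 and Slamf7 lie below 0 on all 3 scales, while the Sh2d1a difference goes from -0.52 to -0.045.

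Each NZB/W group gave nearly the same picture, in comparisons that share the 6 NZM2410 kidneys and are therefore not independent. For triple therapy late remission the likeness was fixed in advance. Its member means equalled the pooled mean of TACI-Ig and 30-week kidneys within 0.0117, and it also enters the mean of the 4 NZB/W groups. Against the TACI-Ig kidneys, the other group given an adenoviral decoy receptor, 6 members were lower and none was higher, where 30.9% of all genes were lower and 59.5% were called. Slamf1 differed by -0.89 (limma adjusted p = 1.14e-05), Slamf7 by -0.95 (0.000222), Slamf6 by -0.81 (0.000265), Cd244a by -0.67 (0.000183), Ly9 by -0.62 (0.0144) and Sh2d1a by -0.50 (0.000295). The Slamf8 difference of -0.37 did not pass (adjusted p = 0.101). On quantile-normalized values these differences were -0.53 (0.000202) for Slamf1, -0.61 (0.005) for Slamf7 and -0.67 (0.000916) for Slamf6, and, not passing the test, -0.19 (0.112) for Cd244a, -0.39 (0.0755) for Ly9, -0.00090 (0.994) for Sh2d1a and -0.10 (0.641) for Slamf8. Against the 30-week kidneys 7 members were called, all lower (31.3% of genes lower, 62.8% called), with Slamf1 at -0.75, Slamf6 at -0.90 and Slamf7 at -0.84. Against early remission 7 were called, all lower (33.2% of genes lower, 64.6% called), with Slamf1 at -0.80, Slamf6 at -0.77 and Slamf7 at -0.77. Against late remission after triple therapy 6 were called, all lower (30.7% of genes lower, 61.7% called). On quantile-normalized values Slamf1, Slamf6 and Slamf7 were lower in each of these 4 comparisons, 3 of 10 members where 23.3% (TACI-Ig), 24.6% (30 weeks), 27.1% (early remission) and 23.4% (triple therapy late remission) of all genes were lower. Cd84 was higher than in early remission (0.58, adjusted p = 0.0067), as were 29.2% of genes. With cyclic loess 5 members were called in the comparison with all NZB/W groups (61.6% of genes in either direction), among them Cd84, which was higher. There were 4 against TACI-Ig (49.4%), 3 against 30 weeks (53.9%), 5 against early remission (57.7%) and 3 against triple therapy late remission (51.4%). With the stricter filter of the study's methods, applied here as adjusted p up to 0.001 and linear ratios from 1.4 upward or from 0.7 downward, these counts were 5 (19.2% of genes), 4 (20%), 4 (16.7%), 4 (18.7%) and 3 (17.9%).

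Among the NZB/W kidneys no member passed limma's test between any 2 of the 4 groups, and none had an unadjusted p under 0.05 in the 6 comparisons. In 4 of them 0 genes were called at all, although 46 to 3208 genes had an unadjusted p under 0.05. Late against early remission after triple therapy had 11 genes called (0.0697%), and late remission after triple therapy against TACI-Ig had 12 (0.076%). From 30 weeks to early remission the member differences ran from -0.39 (Cd48, 95% interval -1.06 to 0.28) to 0.049 (Slamf1). Between TACI-Ig late remission and 30 weeks they ran from -0.38 (Cd48, 95% interval -1.34 to 0.58) to 0.22 (Slamf9, 95% interval -0.62 to 1.06). In TACI-Ig late remission against early remission 9 of 10 were above 0, up to 0.35 for Slamf9 (adjusted p = 0.595). The intervals of Cd48 and Slamf9 span more than 1 log2 unit, so that sizeable differences between treatments would not have been detectable with these numbers of kidneys. The triple therapy late-remission means equalled, within 0.0117, the pooled mean of TACI-Ig and 30-week kidneys for the members (0.0255 for any gene), and comparisons with that group carry no information of their own on its level.

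The spread within groups was set in part by single kidneys. At 30 weeks replicate 2 was the highest of its group for 10 of 10 members, by 0.29 (Slamf1) to 2.27 (Cd48) above the mean of the others. Its Cd48 value was 8.12 where the others had 5.50 to 6.45, and its Slamf9 value 9.23 where the others had 7.07 to 7.62. Marker lists were scored on deposited values, as the mean log2 deviation of their genes from the mean over the 32 kidneys. In replicate 2 the macrophage list was at 1.19, the lymph node stroma list (Cxcl13, Glycam1, Madcam1 and Chst4) at 1.36, the B cell list at 0.82, the T cell list at 0.56 and the kidney list at -0.40. In NZM2410 replicate 3, highest of its group for 7 of 10 members, the macrophage list was at 1.17, the T cell list at 0.040 and the B cell list at -0.60. The part of these cells in the values of both kidneys was not tested. Without both kidneys the strain comparison had 7 of 10 members called, where 69.2% of all genes were called with all kidneys.

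Across the 26 NZB/W kidneys the members varied together. After removal of group means, all 45 pairs of members had a positive correlation with an adjusted p under 0.05 over the 45 pairs (permutation test within groups), with r from 0.52 to 0.92 and a median of 0.76. Without 30-week replicate 2, r ran from 0.46 to 0.89 with a median of 0.70. Over all 124496310 pairs of the 15780 genes the median r was 0.0069, and 3.15% of pairs had an r at least as high as the lowest among members. On quantile-normalized values, added after seeing the data, the 45 pairs also had an adjusted p under 0.05, with r from 0.51 to 0.91 and a median of 0.73, where all pairs of genes had a median of 0.0015 and 3.1% of them reached the lowest value of the members. Correlations below are on deposited values. Cd48 and Slamf8 had the highest correlation (Pearson r = 0.92, Spearman rho = 0.90, permutation p = 1e-05 for each, the smallest the permutations can give, adjusted p = 6.43e-05 and 7.5e-05, r = 0.87 without the 2 farthest kidneys). Slamf6 and Slamf7 followed each other nearly as closely (r = 0.90, rho = 0.88, permutation p = 1e-05 for each, adjusted p = 6.43e-05 and 7.5e-05, r = 0.82 without the 2 farthest kidneys). The weakest pair was Cd84 with Sh2d1a (r = 0.52, rho = 0.51, permutation p = 0.0135 and 0.0229, adjusted p = 0.0135 and 0.0241), with r = 0.40 without the 2 farthest kidneys. The receptor Cd244a and its ligand Cd48 had r = 0.88 and rho = 0.79 (permutation p = 2e-05 and 1e-04, adjusted p = 8.18e-05 and 0.000321, r = 0.80 without the 2 farthest kidneys).

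The marker list that a member tracked most closely was clear for some members and not for others, in the same 26 kidneys and among 110 pairs of a member and a list. Cd48 and Slamf8 were closest to the macrophage list, with r = 0.96 and 0.90 (rho = 0.95 and 0.89, r = 0.96 and 0.85 without the 2 farthest kidneys), Slamf1 to the dendritic cell list (r = 0.87, rho = 0.85, then 0.81) and Cd84 to the B cell list (r = 0.78, rho = 0.73, then 0.71), each by all 3 measures. For the other 6 the closest list depended on the measure. By Pearson r, Slamf7 and Slamf6 were closest to the B cell list (r = 0.94 and 0.91, 0.90 and 0.84 without the 2 farthest kidneys), but rho was higher with the plasma cell list (0.91 and 0.88) than with the B cell list (0.89 and 0.85). Slamf9 had r = 0.94 with the macrophage list, its rho was 0.92 with both the macrophage and the dendritic cell list, and without the 2 farthest kidneys r was 0.91 with each. Ly9 had its highest r with the lymph node stroma list (0.93, rho = 0.89) and its highest rho with the macrophage list (0.90). Cd244a had its highest r with the list of NK and cytotoxic genes (0.85, rho = 0.77, then 0.75), while the dendritic cell list gave rho = 0.80 and, without the 2 farthest kidneys, r = 0.77. Sh2d1a had its highest r with the B cell list (0.71, rho = 0.64, then 0.58), its highest rho with the stroma list (0.66) and, without the 2 farthest kidneys, its highest r with the macrophage list (0.64). The permutation p of the 10 relations with the highest Pearson r was at most 0.00209, and 0.00354 after adjustment over the 110 pairs. Each member was correlated with several immune lists at once, though least with the neutrophil list (r from 0.10 for Sh2d1a to 0.55 for Slamf6). The order of lists for a member is therefore a description, and differences between lists were not tested. The correlation with the kidney list was negative for each member, from -0.71 (Cd48) to -0.30 (Sh2d1a). It did not pass the permutation test for Cd84 (r = -0.43, adjusted p = 0.113) or Sh2d1a (adjusted p = 0.077).

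**Figure D4:**
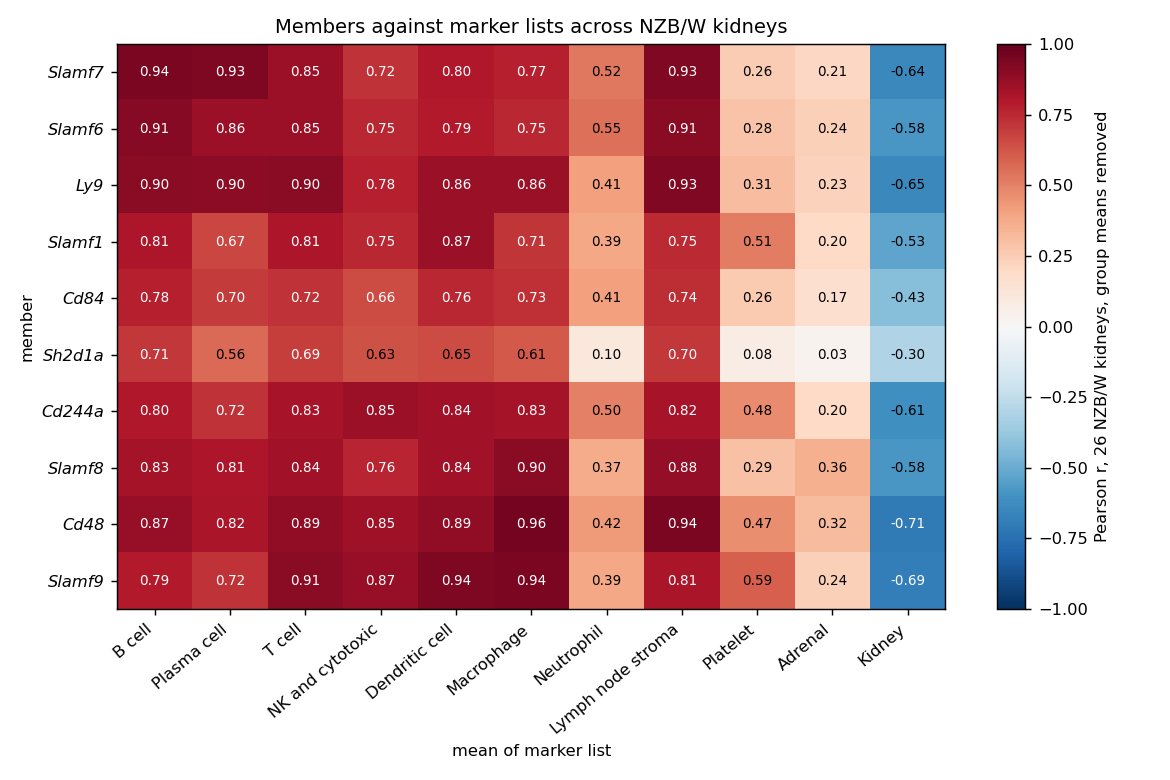
Pearson r between each member (rows) and the mean of each marker list (columns) over 26 NZB/W kidneys after removal of group means. By this measure Slamf7 and Slamf6 are highest with B cell genes (0.94 and 0.91), and Cd48 and Slamf9 with macrophage genes (0.96 and 0.94).

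The single genes most like each member, by Pearson r over the same 26 kidneys and all genes tested, were mostly leukocyte genes. Those of Slamf7 were Ms4a1 (r = 0.95), which encodes CD20, Fcrl1 (0.95), an Fc receptor-like protein of B cells, and H2-Ob (0.93), a class II chain. Those of Slamf6 were Btla (0.93), an inhibitory receptor of lymphocytes, Fcrl1 (0.93) and Tnfrsf13c (0.92), which encodes the BAFF receptor. Ly9 was nearest to Prkcb (0.94) and to the T cell receptor chains Cd3d (0.94) and Cd3g (0.93), and Slamf1 to the B cell scaffold gene Bank1 (0.86), Ifi203 (0.86) and Acap1 (0.85). Cd244a was nearest to the lectin-like receptor genes Klra17 (0.92) and Klrb1b (0.91) and the integrin gene Itga4 (0.92). Cd48 was nearest to Ly86 (0.97), which encodes MD-1, Ptprc (0.97), which encodes CD45, and the tetraspanin gene Cd53 (0.97). Slamf8 was nearest to Tifab (0.93), Ly86 (0.93) and H2-DMb1 (0.92), and Slamf9 to Cd72 (0.97), Gpr65 (0.97) and Ms4a7 (0.96). For Cd84 they were Gpr18, Ccl8 (both 0.86) and Was (0.84), and for Sh2d1a Arhgap15 (0.84), Stap1 (0.83) and Hpse (0.79).

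The same lists differed between the strains. Of all genes, 34.4% were called lower and 34.7% higher in NZM2410 as deposited, and 28.3% and 31% after quantile normalization. In NZM2410, 10 of 10 measured B cell genes were lower (median difference -0.83), and 8 of 10 after quantile normalization (median -0.81). Their score ran from -0.69 to -0.51 in NZM2410 and from -0.42 to 0.82 in NZB/W kidneys, without overlap. Of 15 T cell genes 10 were lower and 1 higher (median -0.44), and 6 were lower after quantile normalization (median -0.17). Of 17 macrophage genes none was lower and 2 were higher (median 0.089), and 1 was lower and 2 higher after quantile normalization (median -0.0099), with scores from -0.55 to 1.17 in NZM2410 and from -0.64 to 1.19 in NZB/W. Scores of plasma cell genes did not overlap between the strains either (-1.07 to -0.66 in NZM2410, -0.51 to 1.03 in NZB/W). Nor did those of NK genes (-0.70 to -0.29 against -0.14 to 0.55) or neutrophil genes (-0.62 to -0.28 against -0.21 to 0.65). Those of kidney genes were higher in NZM2410, also without overlap (0.23 to 0.38 against -0.50 to 0.20). All these scores were on deposited values and were not computed after quantile normalization. T cell scores overlapped (-0.46 to 0.040 in NZM2410, -0.25 to 0.56 in NZB/W), as did those of lymph node stroma (-0.95 to -0.49 against -0.70 to 1.36). Among single genes, 16% had all NZM2410 kidneys below all NZB/W kidneys as deposited, and 8.37% after quantile normalization. These shares are for single genes in 1 direction, and do not measure how often the mean of a list would separate. Of 9 plasma cell genes 6 were lower and 1 higher (median -0.57), with the same counts after quantile normalization (median -0.54). Of 11 NK genes 9 were lower and none higher (median -0.45), and 6 were lower after quantile normalization (median -0.22). The part of these cells in the differences of the members was not tested.

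Genes known to act with SLAM receptors differed in both directions, and the balance changed with the scaling and the comparison. Of 28 listed genes 23 were measured, and 10 were higher and 3 lower in NZM2410 as deposited (median 0.11), where 34.7% of all genes were higher and 34.4% lower, while after quantile normalization 5 were higher and 5 lower (median 0.037). Against the TACI-Ig kidneys 3 were higher (Bcl10, Pik3c3 and Pik3r4) and 3 lower (Inpp5d, Cd2 and Dok2), where 28.6% and 30.9% of all genes were, and after quantile normalization 2 were higher and 4 lower. Called lower on both scales in the comparison with all NZB/W groups were Dok2 (-0.53, limma adjusted p = 2.56e-09, and -0.56 after quantile normalization), an adaptor that restrains signalling, and Inpp5d (-0.46, adjusted p = 1.99e-05, and -0.54), which encodes the phosphatase SHIP1. Called higher on both were the T cell adaptor Lat (0.51, then 0.44), the B cell adaptor Blnk (0.35, then 0.25), Rasa1 (0.34, then 0.26), and Pik3c3 (0.27, then 0.20) and Pik3r4 (0.28, then 0.21) of the lipid kinase complex that SLAM joins on phagosomes. Calls made on deposited values alone were Cd2 (-0.39, adjusted p = 0.016, then -0.15, adjusted p = 0.38), a T cell receptor that binds Cd48, and Plcg2 (0.27, then 0.18), Csk (0.21, then 0.13), Bcl10 (0.15, then 0.059), Ptk2b (0.12, then 0.037) and Becn1, also of that complex (0.11, then -0.027, adjusted p = 0.62, with the sign turned). Prkcq (-0.14), Ptpn11 (-0.12) and Dok1 (-0.25) were called lower on quantile-normalized values alone. Fyn itself (0.12, adjusted p = 0.265) was not called as deposited.

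The neighbourhood of the cluster was not shifted in 1 direction. Of the 40 nearest measured genes of chromosome 1, 20 on each side of the cluster with members left out, 14 were higher in NZM2410 and 15 lower (median -0.061), or 14 and 14 after quantile normalization (median 0.00018). Shares of 35% and 37.5% are near the 34.7% and 34.4% of all genes. Among the largest differences were Fcer1g (-1.09), the Fc receptor gamma chain, Adamts4 (-1.04), a proteoglycan-cleaving protease, Crp (-0.97), C-reactive protein, the nuclear receptor gene Nr1i3 (-0.89), Igsf8 (-0.77), Olfr16 (-0.65) and Pcp4l1 (-0.61). In the other direction were Apcs (0.73), which encodes serum amyloid P, the potassium channel gene Kcnj10 (0.69) and the transcription factor gene Usf1 (0.66). These 10 were called with the same sign after quantile normalization, from -1.17 (Fcer1g) to 0.72 (Apcs). Higher and lower genes were interspersed along the chromosome, with some runs in 1 direction, such as Vangl2, Nhlh1 and Ncstn, all lower as deposited. Inside the cluster, Cd48 and Cd84, neither of them called as deposited, stood at 0.18 and 0.30 on either side of Slamf1 at -0.81.

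**Figure D5:**
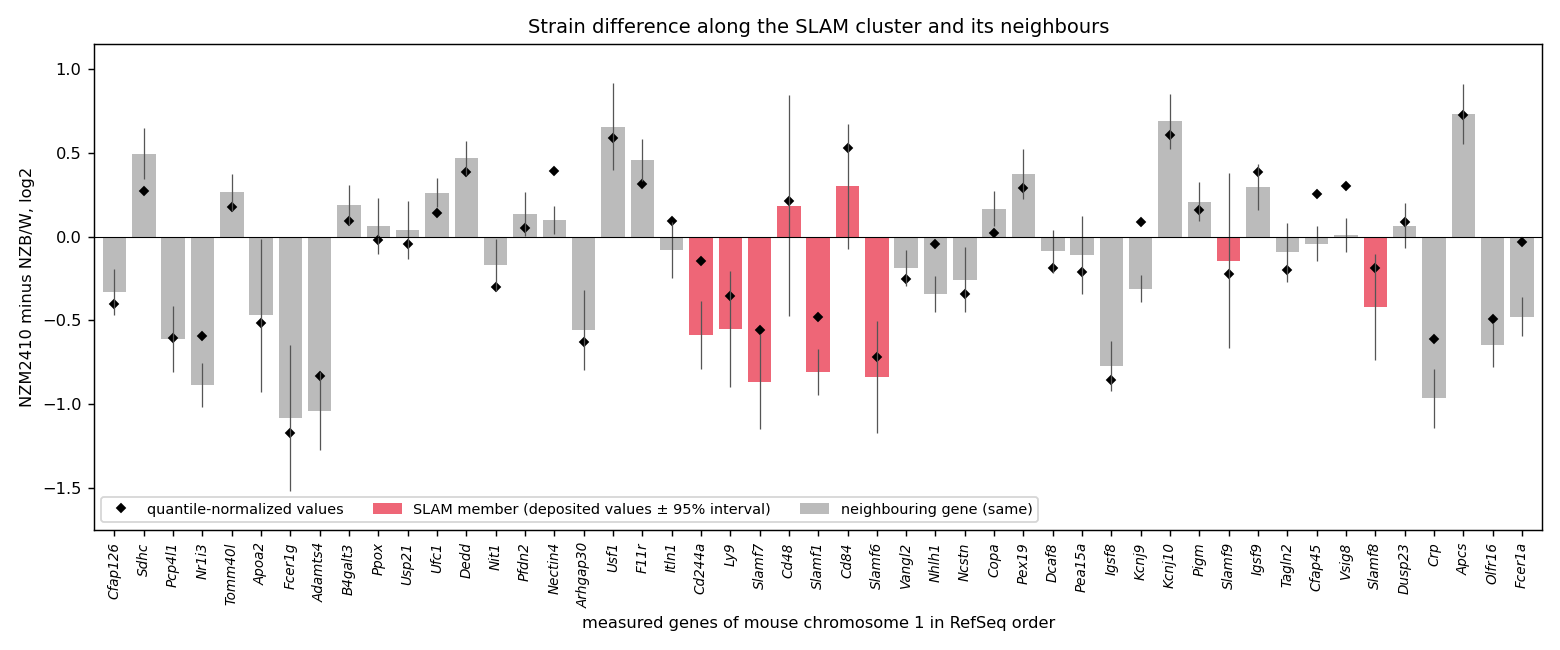
Difference between NZM2410 and NZB/W (vertical axis, log2, bars with 95% intervals for deposited values, diamonds for quantile-normalized values) for SLAM members (red) and neighbouring genes (grey) in their RefSeq order on chromosome 1 (horizontal axis). Genes of both directions lie side by side, with Fcer1g at -1.09 and Usf1 at 0.66.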

How the data were processed

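RNA of 32 whole kidneys was hybridized to Affymetrix arrays. The deposited values are log2 intensities that the authors made with RMA (version not given in the sources used here), with 1 probe set per Entrez gene, normalized and batch-corrected together, and the batches are not named. Array SDs differed between the strains, from 1.90 to 2.03 in NZB/W and from 2.11 to 2.17 in NZM2410, so quantile normalization and cyclic loess were run as alternatives. The 2 most similar arrays correlated at 0.9973. Of 16539 probe sets, 64 controls and 695 without a gene name were left out, and 15752 of 15780 Entrez IDs matched RefSeq. Groups were taken from the labels. The labels give 30-week replicate 6 and early-remission replicate 1 the same mouse code. Precision is limited by the number of arrays, which have no read depth.

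Each of 11 comparisons was fitted by lmFit and eBayes of limma 3.58.1 (R 4.3.3, checked on simulated data) on its own 2 groups, and the pooled strain contrast on all 5 groups. The study's SAM test was not run. Correlations used 100000 permutations within groups (numpy 2.4.6, scipy 1.17.1, Python 3.11.15). Alternatives also left out genes with a mean below 6.07 (leaving 10520), fitted all groups jointly, let the prior follow intensity robustly, weighted arrays, centred medians, applied the study's stricter filter and used the replicate number as a block, and each kidney was left out in turn. Cyclic loess, correlations on quantile-normalized values and leaving out both kidneys that stood apart were chosen after seeing the data. Members, marker lists and tests were chosen with earlier results of these data known. Named are all members, SLAM signalling genes past the threshold in the pooled or TACI-Ig strain comparison, the 10 largest differences among the called neighbours, and the 3 genes most like each member. Other marker lists gave, in the pooled strain comparison, 1 higher and 6 lower of 9 plasma cell genes, 0 and 9 of 11 NK genes, 4 and 5 of 10 dendritic cell genes, 0 and 5 of 8 neutrophil genes, 2 and 4 of 8 platelet genes, 0 and 3 of 4 lymph node stroma genes, 8 and 0 of 11 kidney genes and 0 and 9 of 10 adrenal genes. These counts are on deposited values, where 34.7% of all genes were higher and 34.4% lower.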

Additional observations from a re-analysis of the deposited data

Results flagged for a closer look

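Of 50 groups of values (10 members in 5 groups), 10 held a kidney whose distance to the nearest other kidney was an unusually large part of the range of the group by Dixon's test at the 95% level. Chance flags about 1 in 20 such groups. In 30-week replicate 2, Cd48 was 8.12 (others 5.50 to 6.45), Slamf9 9.23 (7.07 to 7.62), Slamf6 7.28 (5.76 to 6.18), Ly9 6.53 (4.89 to 5.52), Slamf8 6.18 (4.94 to 5.40) and Cd244a 5.07 (4.19 to 4.42). In NZM2410 replicate 3, Ly9 was 5.63 (4.62 to 4.87), Slamf8 5.43 (4.54 to 4.84) and Cd244a 4.04 (3.78 to 3.82). In late remission after triple therapy, Slamf1 was 5.47 in replicate 7 (4.97 to 5.13). Thus 9 of the 10 came from 2 kidneys, in both of which macrophage genes were high (1.19 and 1.17 above the mean of all kidneys). In 30-week replicate 2 the lymph node stroma (1.36), plasma cell (1.03) and B cell (0.82) lists were high as well. TACI-Ig replicate 5 had a macrophage score of 1.02 and no flag. A relation of any list to the flags was not tested.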

How the results depend on the processing

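Counts of members called lower or higher changed by over 1.5 times under the settings that change the signal scale or the threshold. After quantile normalization 4 members were called (7 as deposited) in the comparison of NZM2410 with all NZB/W groups and 3 (6) against TACI-Ig. There were 3 (7) against 30 weeks, 4 (7) against early remission and 3 (6) against triple therapy late remission. Slamf1, Slamf6 and Slamf7 were lower in each, where 28.3%, 23.3%, 24.6%, 27.1% and 23.4% of all genes were, in that order. The other member, with all NZB/W groups and against early remission, was Cd84, called higher (31% and 29.2% of genes). With cyclic loess, chosen after seeing the data, 3 were called against 30 weeks (53.9% of genes) and 3 against triple therapy late remission (51.4%). The stricter filter left 4 against 30 weeks (16.7% of genes), 4 against early remission (18.7%) and 3 against triple therapy late remission (17.9%). With the genes of a mean below 6.07 left out, 0 members were called in these 5 comparisons, since 9 of 10 members are among the genes left out. With 1 kidney left out the counts ran from 6 to 7 with all NZB/W groups and 6 to 7 against TACI-Ig. They ran from 5 to 7 against 30 weeks and 7 to 7 against early remission. Against triple therapy late remission they ran from 5 to 7, and within NZB/W from 0 to 0. Of all genes, 69.2%, 59.5%, 62.8%, 64.6% and 61.7% were called with all kidneys in the 5 strain comparisons, in that order. The Cd48 difference turned to -0.067 without NZM2410 replicate 3 (range over single kidneys left out -0.067 to 0.39), and was not called under any of the settings run. The Slamf8 difference from TACI-Ig was called with array weights (-0.43, limma adjusted p = 0.0368) and without TACI-Ig replicate 2 (-0.51, 0.0244) or NZM2410 replicate 3 (-0.49, 0.0198). Ly9 lost its call against TACI-Ig after quantile normalization (-0.39, 0.0755) and cyclic loess (-0.44, 0.062). The cause was not tested.

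Replicate numbers were not taken as pairs in the main fits. The deviations of same-numbered kidneys correlated at -0.71 to 0.34 over 40 pairs and above 0.1 in 8. No range for differently numbered kidneys is set beside this, so that pairing by number is not excluded. With the number as a block, 7 members were called with all NZB/W groups and 7 against TACI-Ig. There were 6 against 30 weeks, 6 against early remission and 0 within NZB/W. Without the block, 69.2%, 59.5%, 62.8% and 64.6% of all genes were called in these strain comparisons, in that order. With the block, the Slamf8 difference from TACI-Ig was -0.37 (limma adjusted p = 0.0418). The block could not be fitted where late remission after triple therapy is compared with NZM2410 or TACI-Ig, which share fewer than 2 numbers with it.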
